A study of Homo with 2 samples.

Results

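A set of 9 genes of the WNT pathway, out of 28363 listed, were followed across single cells of day 4 human blastoids: the ligand WNT3, the nuclear factors LEF1 and TCF7, the target SP5, and the feedback inhibitors AXIN2, NKD1, RNF43, ZNRF3 and DKK1. They were taken by symbol from the count tables of both libraries, and each of the 9 was present in both. Blastoids are embryo-like aggregates of pluripotent cells, here from the established human embryonic stem cell line KhES1. Both libraries belong to 1 group: per the labels, dissociated cells formed aggregates over 24 h in microwells and were held for 4 days in a hydrogel, in DMEM with 10% FBS and 10 µM of the ROCK inhibitor Y27632. The labels name no added WNT ligand or inhibitor and no untreated arm, so the comparisons are between groups of cells within the libraries. No label says whether the 2 libraries are separate cultures. The p-values measure only how far differences between groups of cells vary between these libraries, pooled over the groups. This spread may be technical.

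WNT ligands bind Frizzled receptors with LRP5 or LRP6 and stop the destruction complex from degrading beta-catenin, which then enters the nucleus and acts with TCF and LEF factors on target genes. Several targets damp the signal: AXIN2 is a scaffold of the destruction complex, NKD1 binds Dishevelled, RNF43 and ZNRF3 are ubiquitin ligases that remove Frizzled from the cell surface, and DKK1 is a secreted protein that blocks LRP5 and LRP6. In the mammalian embryo WNT3 is needed for the primitive streak, where the T-box factor TBXT, itself a WNT target, marks cells leaving the epiblast.

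Cells were sorted into 6 groups by whether they had at least 1 UMI (unique molecular identifier, a count of 1 captured transcript) of TBXT, SOX2, an epiblast factor, and GATA3, a trophectoderm and amnion factor. The filter of at least 1000 genes and at most 20% mitochondrial UMIs left 937 of 1988 in library 1 and 1519 of 2601 in library 2. The TBXT group (TBXT without GATA3) held 16 cells of library 1 and 35 of library 2, of which 5 and 17 also had SOX2. The SOX2 group (SOX2 alone) held 13 and 29 cells, the GATA3 group (GATA3 alone) 679 and 972, the SOX2+GATA3 group 61 and 58, and the TBXT+GATA3 group 13 and 19. The remaining 155 and 406 cells had none of the 3 genes. They were shallow, with medians of 6335 and 2946 UMIs, against 37283 and 30809 in the GATA3 group, 24529 and 27912 in the SOX2 group and 55985 and 55950 in the TBXT group. No kept barcode sequence was shared by both libraries.

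Marker lists were set against these groups. The TBXT group had 10 primitive streak and mesoderm markers at a summed 947 and 944 CPM (the UMIs of each gene after every sum of cells is brought to the same total) in libraries 1 and 2, led by MIXL1 in both. Only FGF8 was at 0, in library 1. The same list stood at 13.9 and 154 CPM in the SOX2 group, so the SOX2 cells of library 2 carried more of it, and at 6.23 and 7.30 CPM in the GATA3 group. Epiblast markers stood at 2255 and 2482 CPM in the TBXT group and at 1887 and 2770 in the SOX2 group, with POU5F1 and L1TD1 as the top genes in both. Trophectoderm and amnion markers stood at 1780 and 1789 CPM in the GATA3 group, led by GABRP and HAND1. In the TBXT group that list stood at 53.6 and 49.0 CPM, with VTCN1, IGFBP5, ITGB6 and VGLL1 at 0 in library 1 and VGLL1 at 0 in library 2. The SOX2 group had it at 245 and 275 CPM. Mesenchyme markers stood at 505 and 540 CPM in the GATA3 group, 57.0 and 68.3 in the TBXT group and 52.9 and 71.4 in the SOX2 group. Of the 6 endoderm markers 3 were in both tables. They stood at 33.5 and 40.4 CPM in the TBXT group, with GATA4 at 32.4 and 19.9 and SOX17 at 0 and 20.5, at 0 and 1.25 in the SOX2 group and at 2.28 and 1.15 in the GATA3 group. The part of these other lineages in the results was not tested. Cells with none of the 3 grouping genes had the trophectoderm and amnion list at 1666 and 1533 CPM.

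Summed over the 9 genes, the TBXT group was highest, the SOX2 and TBXT+GATA3 groups followed, and the other 3 groups were low. The sum was 875 and 672 CPM in the TBXT group in libraries 1 and 2, 523 and 546 in the SOX2 group and 498 and 488 in the TBXT+GATA3 group. It was 154 and 150 CPM in the SOX2+GATA3 group, 116 and 106 in the GATA3 group and 121 and 145 in cells with none of the 3. Values of the first 3 groups lay above those of the last 3 in both libraries. Per cell, the median was 8.24 and 6.07 UMIs of these genes per 10000 in the TBXT group, 3.71 and 4.37 in the SOX2 group and 0.825 and 0.778 in the GATA3 group. The SOX2 group was mixed: 3 of its 13 cells in library 1 and 6 of 29 in library 2 had no UMI of any of the 9 genes. In the TBXT group these numbers were 0 of 16 and 1 of 35. The SOX2 cells with 1 SOX2 UMI, 3 and 11, had POU5F1 at 43.3 and 127 CPM and the amnion marker GABRP at 72.1 and 144. POU5F1 came from 3 UMIs of 1 cell in library 1 and 15 UMIs of 6 cells in library 2. GABRP came from 5 UMIs of 1 cell and 17 UMIs of 3 cells, 10 of the 17 from 1 cell. In the 10 and 18 SOX2 cells with at least 2 SOX2 UMIs, POU5F1 stood at 438 and 693 CPM and GABRP at 0 and 8.81. The 6 groups differ in depth, and a shallow cell shows 0 more easily.

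**Figure D1:**
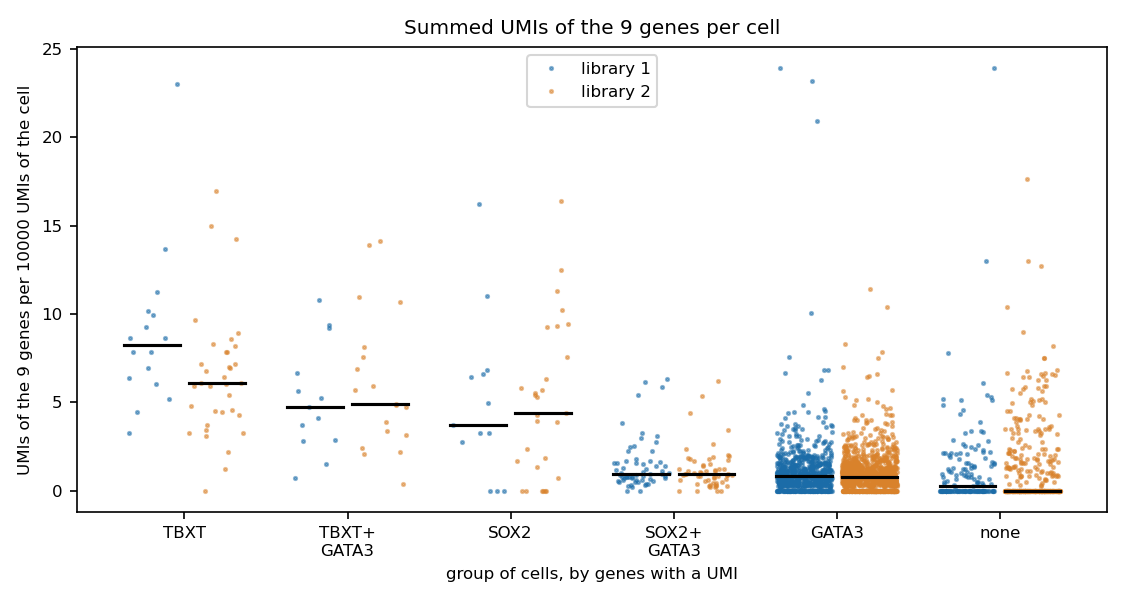
UMIs of the 9 genes per 10000 UMIs of the cell, on the vertical axis, for each kept cell in the 6 groups. Each point is a cell, blue for library 1 and orange for library 2, and the black bar is the median of the library; the TBXT medians are 8.24 and 6.07, the GATA3 medians 0.825 and 0.778.

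Between the TBXT and GATA3 groups, 8 of the 9 genes were higher in the TBXT group and RNF43 did not pass the test. UMIs were summed per library and group and tested with edgeR's quasi-likelihood test, with the library as a block and Benjamini-Hochberg adjustment over 13892 genes, at a threshold of 0.05. In this comparison 42.3% of all genes passed, 21.0% as higher in the TBXT group and 21.2% as lower. The median log2 fold change was 3.59 over the 9 genes and 0.0019 over all genes tested. Between the SOX2 and GATA3 groups, 7 of the 9 were higher in the SOX2 group, all but RNF43 and DKK1, where 12.7% of all genes passed as higher. The median over the 9 genes was 2.67 there, against -0.0029 over all genes. The 9 genes were picked with earlier results of these data known, and these 2 comparisons share the GATA3 cells, so the counts describe the genes and are no independent support for each other.

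**Figure D2:**
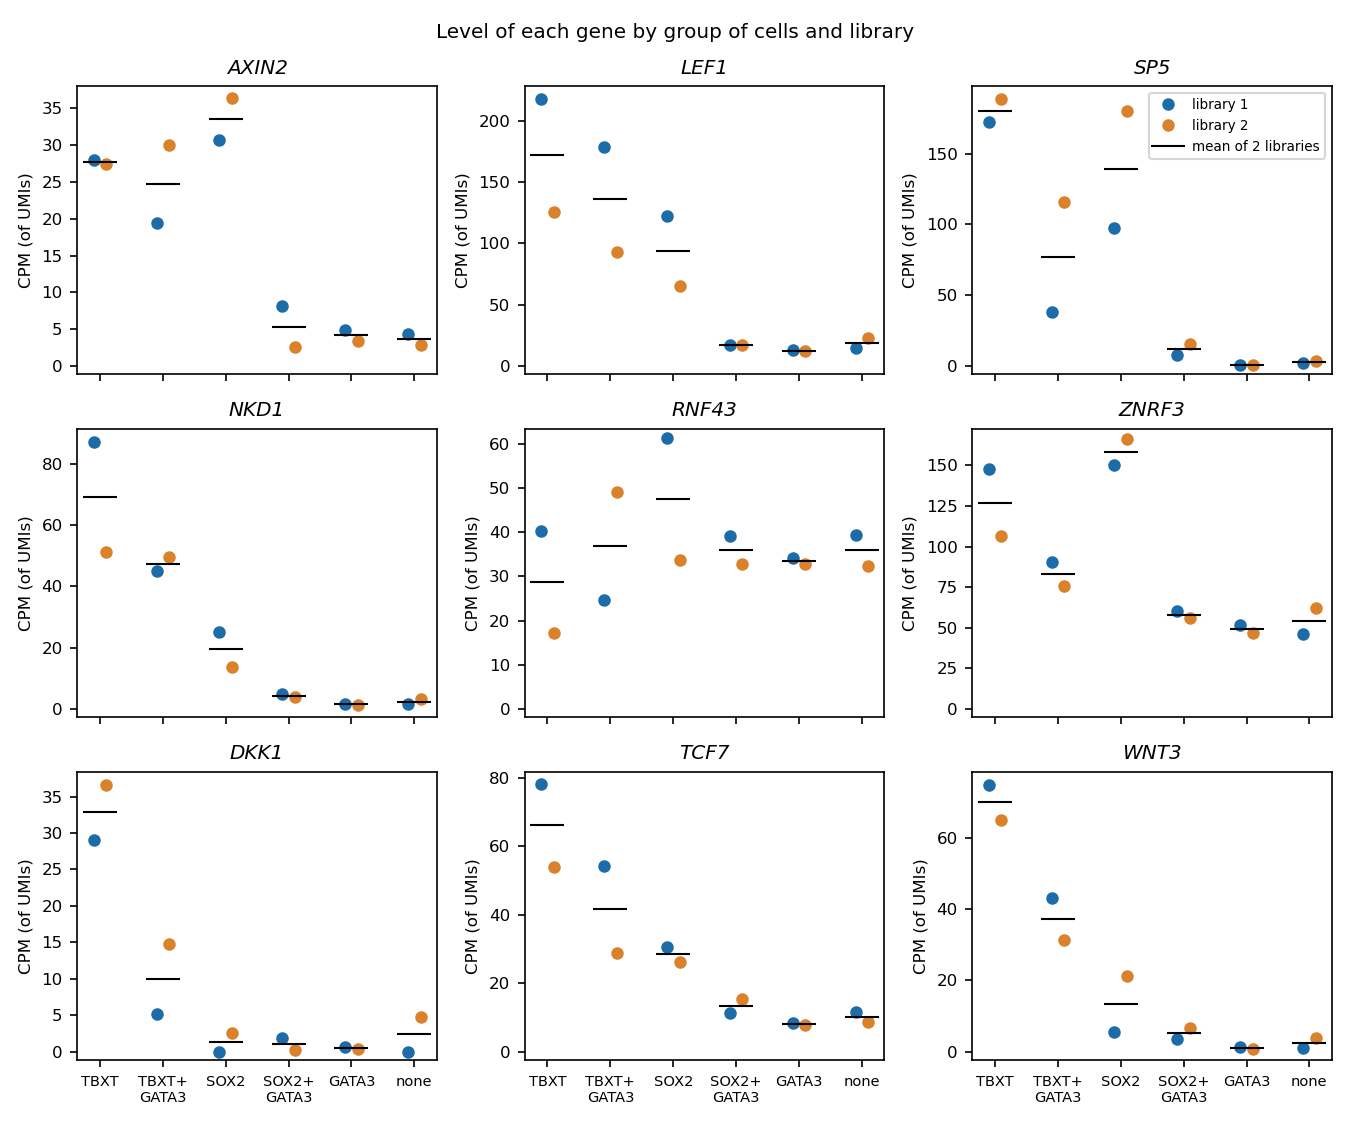
Level of each of the 9 genes in CPM, on a linear axis, in the 6 groups of cells. Each point is a library and each black bar the mean of both; SP5, WNT3 and NKD1 are near 0 in the GATA3 group, while RNF43 is at 34.1 and 32.7 CPM there, between its 2 TBXT values of 40.2 and 17.2.

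WNT3, the ligand, lies at chromosome 17, 46762506 to 46818692 (RefSeq annotation of GRCh38.p14, as for all positions here). Its level was 74.9 CPM in library 1 and 65.1 in library 2 in the TBXT group, 43.0 and 31.3 in the TBXT+GATA3 group, 5.57 and 21.3 in the SOX2 group and 1.29 and 0.79 in the GATA3 group. The first 2 groups did not overlap with each other or with the SOX2 group. The edgeR test was not passed for TBXT+GATA3 against TBXT (adjusted p = 0.306) or for TBXT against SOX2 (adjusted p = 0.0619). For WNT3 and the genes below, how many of all genes part without overlap was not counted. The 16 TBXT cells of library 1 held 40.6% of the WNT3 UMIs of its kept cells, and the 35 of library 2 held 48.4%. Against the GATA3 group the log2 fold change was 5.92 (SE 0.41, adjusted p = 1.14e-06) for TBXT cells and 3.79 (SE 0.67, adjusted p = 0.00169) for SOX2 cells. The SOX2 value rested on 2 UMIs in library 1 and 17 in library 2, and was 1.92 in library 1 alone and 4.61 in library 2 alone. A higher level in a sum may come from more cells with the transcript or from more per cell. After each cell was thinned to 5000 UMIs, 4 of 15 TBXT cells (26.7%, exact 95% interval 7.79 to 55.1) had WNT3 in library 1 and 7 of 35 (20%, 8.44 to 36.9) in library 2. In the GATA3 group the shares were 0.464% (0.0959 to 1.35) and 0.467% (0.127 to 1.19); these intervals cover counting error only.

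LEF1 (chromosome 4, 108047548 to 108168932), the nuclear partner of beta-catenin that is itself induced by WNT, stood at 218 and 125 CPM in the TBXT group, 178 and 93.2 in the TBXT+GATA3 group and 122 and 65.1 in the SOX2 group. In the GATA3 group it stood at 13.1 and 11.99 CPM. Library 1 was the higher one in each of the first 3 groups. The TBXT+GATA3 values overlapped those of the TBXT and SOX2 groups, which lay just apart, and these 3 groups lay above the GATA3 group. Between TBXT and SOX2 cells LEF1 did not pass the edgeR test (adjusted p = 0.207). The log2 fold change against the GATA3 group was 3.59 (SE 0.28, adjusted p = 2.58e-06) in TBXT cells and 2.67 (SE 0.34, adjusted p = 2.09e-04) in SOX2 cells. After thinning, LEF1 was found in 12 of 15 TBXT cells of library 1 (80.0%, 51.9 to 95.7) and 16 of 35 of library 2 (45.7%, 28.8 to 63.4), against 5.42% and 5.72% of GATA3 cells.

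TCF7 (chromosome 5, 134108218 to 134148210), the other TCF/LEF family member followed, stood at 78.2 and 53.8 CPM in the TBXT group, 54.3 and 28.8 in the TBXT+GATA3 group, 30.6 and 26.3 in the SOX2 group and 8.38 and 7.72 in the GATA3 group. The TBXT and SOX2 values did not overlap, and both lay above the GATA3 values. The log2 fold change against the GATA3 group was 2.87 (SE 0.26, adjusted p = 6.24e-06) in TBXT cells and 1.68 (SE 0.37, adjusted p = 0.00586) in SOX2 cells. After thinning, 40.0% (16.3 to 67.7) of TBXT cells had TCF7 in library 1 and 11.4% (3.20 to 26.7) in library 2, against 3.72% and 3.74% of GATA3 cells.

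SP5 (chromosome 2, 170715337 to 170718078), a zinc finger repressor switched on directly by WNT signalling, had the widest gap between the TBXT and GATA3 groups among the 9. It stood at 172 and 188 CPM in the TBXT group and at 0.409 and 0.515 in the GATA3 group, where 679 and 972 cells held 12 and 17 UMIs. In the SOX2 group it stood at 97.4 and 180 CPM, overlapping the TBXT values, and its log2 fold change against the GATA3 group was 8.05 (SE 0.36, adjusted p = 2.55e-07). In TBXT cells that change was 8.46 (SE 0.34, adjusted p = 8.16e-08). After thinning, 7 of 15 and 18 of 35 TBXT cells had SP5 (46.7% and 51.4%), against 0.310% (0.0375 to 1.11) and 0.467% (0.127 to 1.19) of GATA3 cells. The GATA3 group held 4.41% and 2.22% of all SP5 UMIs in kept cells, although it held most of the cells.

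AXIN2 and ZNRF3 were high in both the TBXT and the SOX2 group. AXIN2 (chromosome 17, 65528563 to 65561648) stood at 27.9 and 27.4 CPM in the TBXT group, 30.6 and 36.3 in the SOX2 group and 4.94 and 3.42 in the GATA3 group. ZNRF3 (chromosome 22, 28883572 to 29057488) stood at 148 and 107 CPM, 150 and 167 CPM, and 51.7 and 46.8 CPM in the same order. For both genes the SOX2 values lay above the TBXT values, for ZNRF3 only by 150 against 148 CPM. Neither passed the edgeR test between TBXT and SOX2 cells (adjusted p = 0.822 for AXIN2 and 0.481 for ZNRF3). The share of all genes that part in this way was not counted. Against the GATA3 group the log2 fold change of AXIN2 was 2.63 (SE 0.37, adjusted p = 1.76e-04) in TBXT cells and 2.94 (SE 0.44, adjusted p = 5.86e-04) in SOX2 cells. That of ZNRF3 was 1.21 (SE 0.18, adjusted p = 2.78e-04) and 1.57 (SE 0.20, adjusted p = 1.96e-04). ZNRF3 was also frequent in the GATA3 group, with a UMI in 20.9% (17.8 to 24.2) and 18.8% (16.2 to 21.6) of its thinned cells, while AXIN2 was found in 1.70% and 1.87%.

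RNF43 (chromosome 17, 58352500 to 58417534), the paralogue of ZNRF3, did not follow the other genes. It stood at 34.1 and 32.7 CPM in the GATA3 group, 40.2 and 17.2 in the TBXT group and 61.2 and 33.8 in the SOX2 group, and the ranges of the 3 groups overlapped. The log2 fold change against the GATA3 group was -0.48 (SE 0.33, adjusted p = 0.271) in TBXT cells, with 0.09 in library 1 and -1.03 in library 2. In SOX2 cells it was 0.26 (SE 0.37, adjusted p = 0.648). The GATA3 group held 76.2% and 75.2% of all RNF43 UMIs in kept cells, close to its part of the UMIs of all genes. That part was 29361446 of 37467640 UMIs in library 1 and 33020201 of 43953088 in library 2. Over all kept cells RNF43 stood at 35.1 and 32.7 CPM. The TBXT value differed with how TBXT cells were chosen. In the 11 cells with 1 TBXT UMI, RNF43 stood at 95.02 ± 39.0 CPM (SD, n = 2), and in the 40 cells with at least 2 it stood at 9.16 ± 2.09 (SD, n = 2). The first value came from 29 UMIs in 4 cells of library 1 and 20 UMIs in 3 cells of library 2. In each library 1 cell gave 11 of them. The second value came from 7 and 12 UMIs. With detection at 2 UMIs RNF43 was lower than in the GATA3 group, by a log2 fold change of -1.65 (adjusted p = 3.33e-04), and with detection after thinning by -1.71 (adjusted p = 0.00308). Other genes also differed between cells with 1 TBXT UMI and cells with at least 2, given with no test. WNT3 stood at 21.1 and 16.9 CPM in the first and 94.2 and 74.3 in the second, and DKK1 at 0 and 3.37 against 39.5 and 42.9. TCF7 stood at 50.7 and 23.6 CPM against 88.1 and 59.6, and AXIN2 was the lower one in the second, at 50.7 and 33.7 against 19.8 and 26.3. The values of LEF1, SP5, NKD1 and ZNRF3 overlapped between the 2 sets of cells. The set with 1 TBXT UMI held only 6 and 5 cells. How many of all genes part without overlap was not counted, so these values only describe the genes.

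NKD1 (chromosome 16, 50548396 to 50649249) stood at 87.2 and 51.1 CPM in the TBXT group, 45.1 and 49.6 in the TBXT+GATA3 group, 25.05 and 13.8 in the SOX2 group and 1.74 and 1.24 in the GATA3 group. These 4 groups followed each other in that order without overlap, but the first 2 were parted only by 51.1 against 49.6 CPM. The edgeR test of TBXT+GATA3 against TBXT gave a log2 fold change of -0.34 (adjusted p = 0.577), with 0.05 in library 2 alone. In the TBXT group 1 cell gave 29 of the 78 NKD1 UMIs of library 1, and in the TBXT+GATA3 group 1 cell gave 22 of the 44. The log2 fold change against the GATA3 group was 5.35 (SE 0.29, adjusted p = 3.01e-07) in TBXT cells and 3.47 (SE 0.47, adjusted p = 3.37e-04) in SOX2 cells.

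DKK1 (chromosome 10, 52314281 to 52317657) came from few cells. It stood at 29.1 and 36.6 CPM in the TBXT group, from 26 and 68 UMIs, and only 4 of 16 and 12 of 35 cells had any. In library 1 a single cell held 13 of the 26 UMIs and another in library 2 held 43 of the 68. In the GATA3 group it stood at 0.647 and 0.333 CPM, and 1 cell of library 1 held 17 of its 19 UMIs there. The log2 fold change of TBXT against GATA3 cells was 5.87 (SE 0.71, adjusted p = 5.68e-05), 5.30 in library 1 alone and 6.60 in library 2 alone. The SOX2 group had 0 DKK1 UMIs in library 1 and 2 in library 2, which gives a ratio of 3.59 to the GATA3 group with a counting interval of 0.416 to 14.2 (adjusted p = 0.603).

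**Figure D3:**
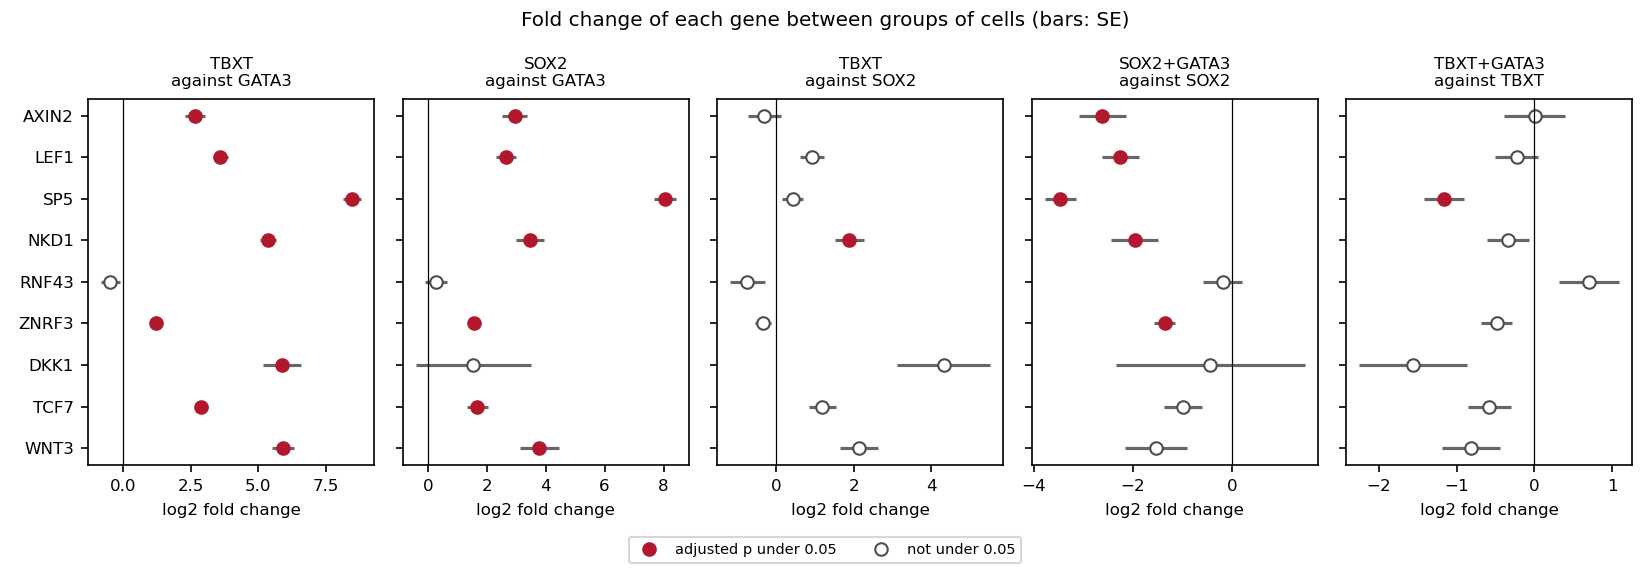
Log2 fold change of each gene in the 5 comparisons between groups of cells, with bars for the SE from edgeR. Filled red points have an adjusted p under 0.05: 8, 7 and 1 genes are higher in the first 3 comparisons, and 5 and 1 lower in the last 2. The DKK1 points against the SOX2 group rest on 2 UMIs there, so their place depends on the fit.

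Between TBXT and SOX2 cells, NKD1 was higher in TBXT cells and none of the other 8 genes passed the test. Of all genes 0.713% passed as higher in TBXT cells. The log2 fold change of NKD1 was 1.89 (SE 0.37, adjusted p = 0.0312), 1.82 and 1.90 in the single libraries. It rested on 173 UMIs in TBXT cells and 20 in SOX2 cells, and 1 TBXT cell gave 29 of the 78 UMIs of library 1. The call was lost when called doublets were left out (adjusted p = 0.0893), with the change at 1.91. None of these doublets lay in the TBXT or SOX2 group, so that alternative changed only other groups of the joint fit. The call was also lost without the 5% of cells with the most UMIs (adjusted p = 0.0759), with the change at 2.12. WNT3 had a log2 fold change of 2.13 (SE 0.50, adjusted p = 0.0619), and passed in 8 of 10 alternative analyses, with adjusted p from 1.81e-06 to 0.0707. DKK1 had 94 UMIs in TBXT and 2 in SOX2 cells, a ratio of 19.8 with a counting interval of 5.32 to 166 (adjusted p = 0.111). That interval leaves out the spread between cells, and 1 TBXT cell of library 2 gave 43 of its 68 UMIs. TCF7 and LEF1 had log2 fold changes of 1.19 (SE 0.34, adjusted p = 0.12502) and 0.92 (SE 0.32, adjusted p = 0.207). Those of SP5, AXIN2 and ZNRF3 were 0.42 (SE 0.27), -0.31 (SE 0.43) and -0.35 (SE 0.21). RNF43 had -0.75 (SE 0.44, adjusted p = 0.495), and with detection at 2 UMIs it was lower in TBXT cells, at -1.79 (adjusted p = 0.0138). The median depth of SOX2 cells was under that of TBXT cells in both libraries, and the part of that gap in these values was not tested. The SOX2 group also included its cells with 1 SOX2 UMI, which had less POU5F1 and more GABRP than the rest, from few UMIs and cells.

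The TBXT group itself held unlike cells. Its 29 cells without a SOX2 UMI were set beside its 22 cells with one, as a description with no test. NKD1 stood at 123 and 93.9 CPM without SOX2 and at 19.3 and 23.8 with it. Of the 72 NKD1 UMIs of library 1 without SOX2, 1 cell gave 29. LEF1 stood at 238 and 211 CPM without SOX2 and at 180 and 70.5 with it, and WNT3 at 78.8 and 91.2 against 67.5 and 48.5. TCF7 stood at 87.4 and 73.2 CPM against 61.1 and 41.4. NKD1, LEF1, WNT3 and TCF7 were thus higher in the cells without SOX2 in both libraries. The cells with SOX2 were only 5 in library 1 and 17 in library 2. How many of all genes part in this way was not counted, so these values only describe the genes. DKK1 stood at 32.5 and 88.4 CPM against 22.5 and 3.53, and 1 cell held 43 of the 64 UMIs of library 2 without SOX2. SP5 overlapped, at 178 and 156 CPM against 161 and 209, and AXIN2 was the higher one with SOX2, at 35.4 and 30.9 against 24.0 and 22.1. ZNRF3 was also higher with SOX2 within each library, at 193 and 118 CPM against 123 and 88.4. RNF43 overlapped, at 42.8 and 4.14 CPM without SOX2 and 35.4 and 25.6 with it. MESP1, a mesoderm factor, stood at 219 and 156 CPM without SOX2 and at 22.5 and 19.4 with it. With the SOX2-bearing cells left out of the TBXT group, 5 of the 9 genes were higher than in the SOX2 group, where 1.47% of all genes passed as higher. They were NKD1, WNT3, LEF1, TCF7 and DKK1. This alternative was chosen after the data had been seen.

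**Figure D4:**
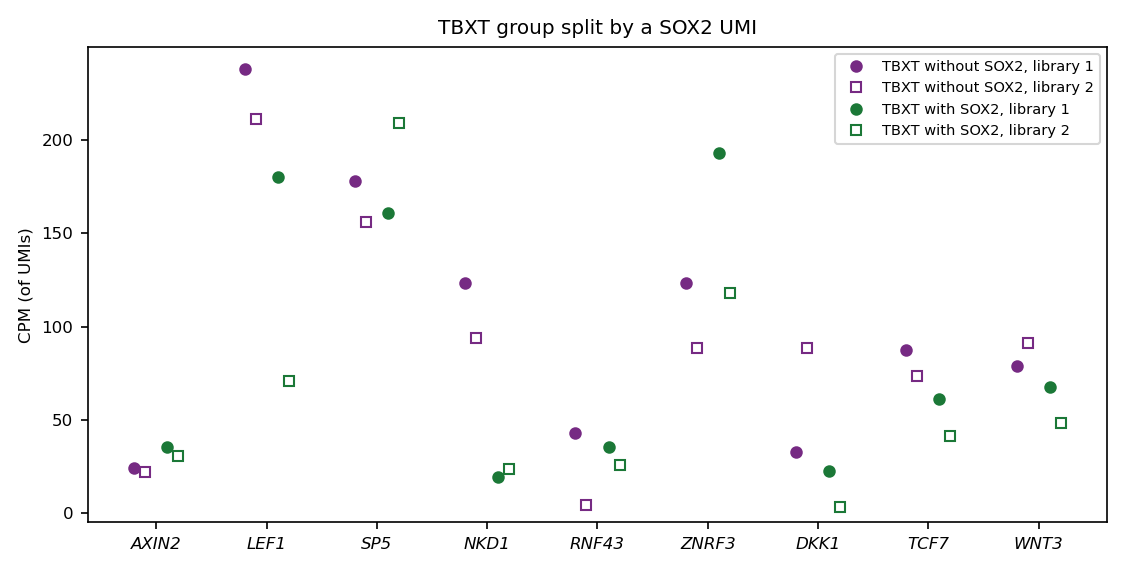
Level of each gene in CPM in TBXT cells without a SOX2 UMI (purple, 11 and 18 cells) and with one (green, 5 and 17 cells). Filled circles are library 1 and open squares library 2; NKD1 is at 123 and 93.9 without SOX2 and at 19.3 and 23.8 with it, while the SP5 values overlap.

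Cells with both SOX2 and GATA3 had lower levels of 5 of the 9 genes than cells with SOX2 alone, where 5.19% of all genes passed as lower and 7.08% as higher. The median over the 9 genes was -1.54, against 0.020 over all genes tested. SP5 stood at 7.84 and 15.7 CPM in the SOX2+GATA3 group, a log2 fold change of -3.46 (SE 0.31, adjusted p = 2.64e-04). AXIN2 stood at 8.11 and 2.57 CPM, a change of -2.61 (SE 0.48, adjusted p = 0.00594), which was -1.79 in library 1 alone and -3.70 in library 2 alone. LEF1 stood at 16.996 and 17.4 CPM, a change of -2.25 (SE 0.36, adjusted p = 0.00294). NKD1 had a change of -1.96 (SE 0.47, adjusted p = 0.0209), lost with detection at 2 UMIs (adjusted p = 0.204) and without the 5% deepest cells (adjusted p = 0.0744). ZNRF3 had -1.36 (SE 0.20, adjusted p = 0.00205), and TCF7, WNT3, RNF43 and DKK1 did not pass. Of these cells, 41 of 61 and 44 of 58 had a single SOX2 UMI. In those, SP5 stood at 0.463 and 0.441 CPM, from 1 UMI in each library, too few to set a level. In the cells with at least 2 SOX2 UMIs it stood at 17.4 and 43.8. These came from 29 UMIs in 6 of 20 cells and 54 UMIs in 3 of 14 cells. Of the 54 UMIs, 1 cell gave 27. LEF1 stood at 5.10 and 8.37 CPM against 32.4 and 34.1 in the same split. The trophectoderm and amnion list of the whole group stood at 1086 and 1365 CPM, against 245 and 275 in the SOX2 group, and the epiblast list at 1053 and 695. The part of free RNA, doublets and cell state in this was not tested.

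Between cells with TBXT and GATA3 and TBXT cells, 1 of the 9 genes passed the test, as lower. Of all genes 2.92% passed, 0.482% as lower and 2.44% as higher. SP5 stood at 37.9 and 116 CPM against 172 and 188 in the TBXT group, a log2 fold change of -1.17 (SE 0.26, adjusted p = 0.0336). It was -2.04 in library 1 alone and -0.61 in library 2 alone. The call was lost without the library block (adjusted p = 0.207), without the 5% deepest cells (adjusted p = 0.665), with stricter filters on cells (adjusted p = 0.0727) and without SOX2-bearing cells in the TBXT group (adjusted p = 0.136). The other 8 had log2 fold changes from -1.56 for DKK1 to 0.70 for RNF43, with adjusted p of 0.251 or more. The TBXT+GATA3 group differed between the libraries: 2 of its 13 cells in library 1 and 11 of 19 in library 2 had SOX2. Its streak list stood at 851 and 360 CPM and its epiblast list at 1002 and 1842. Its trophectoderm and amnion list stood at 656 and 440 CPM, and 1 of 13 and 1 of 19 of its cells were called as doublets. Their median depth was 71279 and 65744 UMIs, the highest of the 6 groups, and the part of doublets and of this cell mix in these values was not tested.

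Counted per cell at equal depth, more of the 9 genes were seen per cell in TBXT and SOX2 cells than in GATA3 cells, a description with no test. Whether the genes met in a cell more often than their single shares would give was not tested. After thinning to 5000 UMIs, which left out 11.7% of kept cells in library 1 and 25.1% in library 2, the median TBXT cell had 3 of the 9 genes in library 1 and 2 in library 2. The median SOX2 cell had 1 and 1.5, and the median GATA3 cell 0 in both. At least 3 of the 9 were found in 11 of 15 (73.3%) and 13 of 35 (37.1%) TBXT cells and in 2 of 11 (18.2%) and 10 of 24 (41.7%) SOX2 cells. In the GATA3 group 7 of 646 (1.08%) and 4 of 856 (0.467%) cells reached 3. For that share SOX2 cells were above TBXT cells in library 2 and below them in library 1, while the medians were higher in TBXT cells of both libraries. After thinning to 2000 UMIs the share was higher in TBXT cells of both, at 18.8% and 17.1% against 7.69% and 10.3%. Without thinning the medians were 7 and 6 in TBXT cells, 4 and 5 in SOX2 cells and 2 in GATA3 cells of both libraries.

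**Figure D5:**
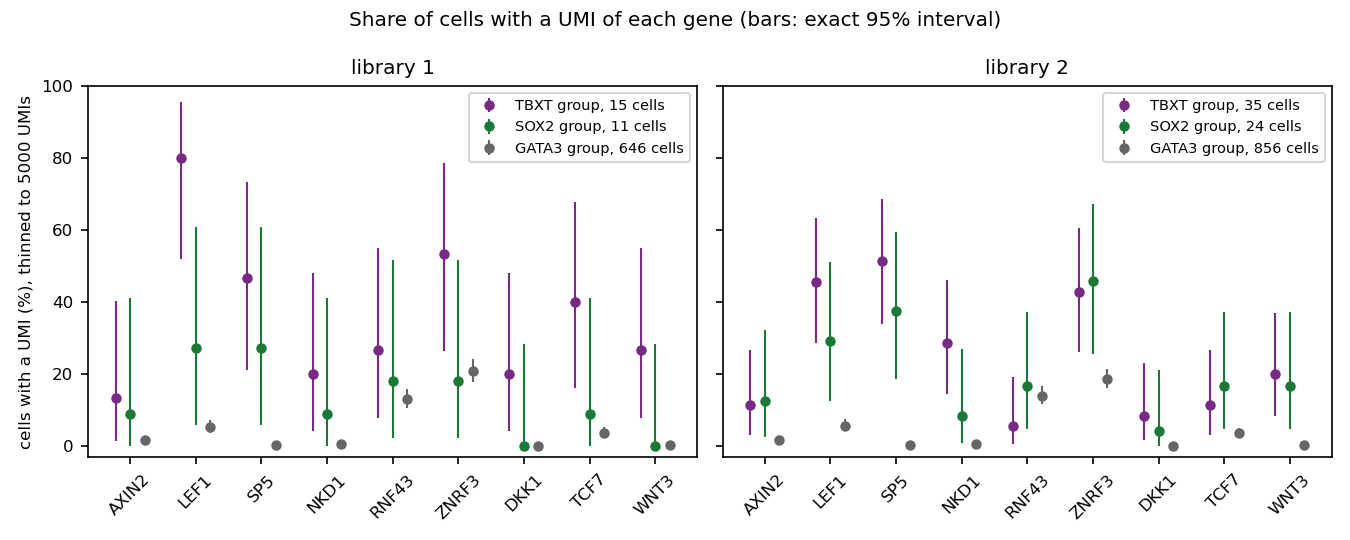
Share of cells with a UMI of each gene, in percent, after thinning every cell to 5000 UMIs, for the TBXT (purple), SOX2 (green) and GATA3 (grey) groups in each library. Bars are exact 95% intervals; LEF1 is found in 80.0% and 45.7% of TBXT cells and in 5.42% and 5.72% of GATA3 cells, and the intervals of TBXT and SOX2 cells overlap for each of the 9 genes.

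Other genes of the pathway were taken from 8 lists. Counts below give genes that passed of those tested between TBXT and GATA3 cells, where 42.3% of all genes passed, 21.0% as higher and 21.2% as lower. With 1 to 13 genes tested in a list, a count near these shares is no result about the list. Genes outside the naming rule were named after their values were seen. Of 10 WNT ligands 4 were higher in TBXT cells and 3 lower, with a median log2 fold change of -0.13. WNT8A had 156 UMIs in TBXT and 2 in GATA3 cells, a ratio of 1768 with a counting interval of 481 to 14724. WNT3A stood at 44.7 and 32.3 CPM in TBXT cells and at 0.307 and 0.151 in GATA3 cells, a log2 fold change of 7.31 (SE 0.54). WNT5A and WNT5B were the other 2 that were higher. The reverse held for WNT6, at 3 UMIs in TBXT and 2332 in GATA3 cells, lower in TBXT cells by a ratio of 34.3 (11.7 to 166), for WNT4, at a log2 fold change of -3.74 (SE 0.77), and for WNT11, at 0 UMIs in TBXT cells and so at least 4.75-fold lower. WNT3A and WNT5A were also higher in TBXT than in SOX2 cells, WNT3A by a ratio of 14.0 (4.66 to 69.1) from 3 UMIs in SOX2 cells and WNT5A at a log2 fold change of 4.09 (SE 0.69).

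Of 13 receptors tested, 5 were higher and 3 lower in TBXT cells, the lower ones near the 21.2% of all genes. FZD10 and FZD7, both Frizzled receptors, had log2 fold changes of 7.29 (SE 0.81) and 1.81 (SE 0.23), FZD10 from 36 UMIs in TBXT cells and 4 in GATA3 cells. FZD6 and ROR1, a co-receptor of non-canonical WNTs, had -2.01 (SE 0.18) and -1.15 (SE 0.41). FZD3, LRP6 and ROR2 were the other 3 higher ones and FZD4 the other lower one. Among R-spondins, which keep RNF43 and ZNRF3 off Frizzled, and their receptors, 2 of 4 tested were higher, RSPO3 and RSPO4. RSPO3 stood at 153 and 89.9 CPM in TBXT cells, 0 and 7.51 in SOX2 cells and 2.11 and 2.03 in GATA3 cells. It was higher in TBXT cells than in the GATA3 group, by 5.68 (SE 0.35), and than in the SOX2 group, by 4.41 (SE 0.60, adjusted p = 0.00830). Of the 2 ligand release genes 1 could be tested and did not pass.

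Of 9 other secreted or surface inhibitors tested, 4 were higher and 2 lower in TBXT cells, the lower ones near the 21.2% of all genes. SFRP2, which is also on the epiblast marker list, stood at 276 and 282 CPM in TBXT cells and 2.25 and 2.03 in GATA3 cells, a log2 fold change of 6.89 (SE 0.38). APCDD1 had 4.67 (SE 0.33), and NOTUM and FRZB were the other 2. SFRP1 was lower, at 13.4 and 43.6 CPM against 301 and 292, a change of -3.41 (SE 0.38). DKK2, a relative of DKK1, had 1 UMI in TBXT and 1480 in GATA3 cells, lower in TBXT cells by a ratio of 65.3 (11.7 to 2581), opposite in direction to DKK1. Of 9 genes of the destruction complex with beta-catenin, 0 were higher and 4 lower, so the number that passed was near the 42.3% of all genes. On the log2 scale the fold change was -1.22 (SE 0.18) for CTNNB1, which encodes beta-catenin, -0.84 for DVL3, -0.58 for GSK3B and -0.48 for CSNK1A1.

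Of 9 nuclear partners, 2 were higher, near the 21.0% of all genes, and 4 lower. TCF7L1 and TCF7L2, the other 2 genes of the TCF/LEF family, were lower in TBXT cells, by -2.18 (SE 0.22) and -1.91 (SE 0.19), where LEF1 and TCF7 were higher. They were also lower in TBXT than in SOX2 cells, by -1.24 (SE 0.25, adjusted p = 0.0322) and -1.13 (SE 0.20, adjusted p = 0.0190). The corepressors TLE4 and TLE3 had -2.47 (SE 0.28) and 1.22 (SE 0.23); BCL9 was the other higher gene and BCL9L the other lower one. Of 10 further WNT-responsive genes, 8 were higher and 1 lower. They included MIXL1, a streak factor, at 354 and 421 CPM against 1.43 and 1.30 (log2 fold change 8.001, SE 0.43), MSGN1, a presomitic mesoderm factor (9.44, SE 0.81), SP8, a relative of SP5 (7.38, SE 0.48), and CYP26A1, which degrades retinoic acid (6.53, SE 0.74). MIXL1, MSGN1, TBX6 and CDX1 of this list are also on the streak marker list. TNFRSF19 was the lower one.

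Over the 12 sums of 6 groups and 2 libraries, the level of each gene as log2(CPM + 1) was set against the mean of the other 8. Pearson's r was highest for NKD1 (0.978) and LEF1 (0.9496), between 0.826 and 0.942 for TCF7, WNT3, SP5, AXIN2 and ZNRF3, 0.707 for DKK1 and -0.129 for RNF43. The sums share libraries and groups, so r is a description with no test. Of 9381 other genes at 20 CPM or more in a group, those most like the mean of the 9 were SPON1 (r = 0.989), IL1RAPL1 (0.988), FEN1 (0.986), ATP5PD (0.984), CACHD1 (0.981), NKAIN2 (0.981), LINC01013 (0.981), SHISAL2B (0.979), ENSG00000243004 (0.978) and HMGB3 (0.977). SPON1 stood at a mean of 141 CPM in TBXT cells, 36.3 in SOX2 cells and 3.24 in GATA3 cells. CACHD1 stood at 620, 309 and 19.2 CPM in the same order.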

How the data were processed

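Single-cell RNA sequencing of day 4 blastoids was deposited as raw counts of UMIs, 1 table of genes by barcodes for each library; per the submitters' processing notes the authors used Cell Ranger 9.0.0 and GRCh38. The libraries held 38665475 and 45208758 UMIs. No source used here says whether counting used strand, so antisense and overlapping genes cannot be told apart. Barcodes under 1000 genes (980 and 1013) or over 20% mitochondrial UMIs (71 and 69 of the rest) were left out. Doublets were called with scrublet (scanpy 1.11.5, 0.8% per 1000 barcodes), which marked 4 and 3 cells; they were kept, and left out as an alternative.

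Counts were summed per library and group over 25556 genes in both tables (12 sums) and tested with edgeR 4.0.16 in R 4.3.3 (TMM, filterByExpr, quasi-likelihood test, Benjamini-Hochberg adjustment over 13892 genes, 5 residual degrees of freedom). The library was a block, since groups of cells come from the same library. TBXT, SOX2 and GATA3 were not tested. The SE is the size of the log2 fold change divided by the square root of F. Where a group had 1 to 3 UMIs over both libraries, the ratio is given with an exact counting interval, and at 0 UMIs a bound against 3 UMIs over the group. These intervals and bounds take each UMI as independent and leave out the spread between cells and libraries. Shares were taken after thinning to 5000 UMIs, with exact Clopper-Pearson intervals at 95%, and cover counting error only. The edgeR test was first run on simulated sums that held no library effect besides depth, and no result here rests on that run.

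The text names the 9 genes and, of each pathway list, up to 4 genes at 10 CPM or more with the largest fold change between TBXT and GATA3 cells. It also names the 10 genes most correlated with the mean of the 9. The 9 genes and the lists were chosen with earlier results of these data known. Alternatives changed the detection of grouping genes, cell and doublet filters, size factors (RLE), the test (DESeq2 1.42.0), the filter on low counts, the block, the libraries used and, added after seeing the data, SOX2-bearing cells in the TBXT group. Sequences of promoters and proteins were not used here.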

Additional observations from a re-analysis of the deposited data

Results flagged for a closer look

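UMIs of the 9 genes were also found in barcodes left out of the comparisons, above the limit that a count of 0 allows. In barcodes with under 1000 genes the 9 genes summed to 103 CPM in library 1, from 61 UMIs, and to 110 in library 2, from 76 UMIs. In barcodes with over 20% mitochondrial UMIs the sum was 276 CPM in library 1, from 167 UMIs, and 152 in library 2, from 86 UMIs. Kept cells stood at 152 and 158 CPM. In library 1 the sum was thus highest in barcodes rich in mitochondrial UMIs, where RNF43, ZNRF3, LEF1 and NKD1 gave 44, 58, 25 and 21 UMIs. Close to the limit of 1000 genes, barcodes with 800 genes up to that limit had 9 and 14 UMIs of the 9 genes (170 and 98.8 CPM). Those with 1000 to 1200 genes had 2 and 14 UMIs, which is 27.5 CPM in library 1, under the limit of 41.2 that a count of 0 allows there, and 71.4 CPM in library 2.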

How the results depend on the processing

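Of 423 tested fold changes of the 9 genes under alternatives, 374 kept their direction and side of the threshold, 8 lost the call, 30 gained it and 11, none of them called, changed sign. The causes were not tested. Between TBXT and GATA3 cells the 8 higher genes passed in each of 11 alternatives, and 1 gene, RNF43, was lower with detection at 2 UMIs and after thinning. SOX2 against GATA3 called 5796 genes with detection at 2 UMIs (3602 in the main analysis), and 39.9% of calls were higher with no filter on low counts (49.1% in the main analysis). TBXT against SOX2 called 212 genes, and 384 with detection at 2 UMIs, 817 after thinning, 341 without the 5% deepest cells, 509 with DESeq2, 900 with no filter on low counts and 440 without SOX2-bearing cells. Of the 9 genes, these called 4, 5, 3, 2, 5 and 5 as higher, against 1, and detection at 2 UMIs and thinning called 1 lower. Without the replicate block 2 were higher there, with 184 genes called. TBXT+GATA3 against TBXT called 406 genes, and 62 without the deepest cells, 674 with DESeq2, 1074 with no filter and 193 without SOX2-bearing cells. Of the 9 genes 1 was lower, but 0 without the deepest cells, with stricter cell filters, without SOX2-bearing cells or without the replicate block, and 2 with no filter. Calls higher in that comparison were 83.5%, and 69.4% with no filter.

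Signs changed for DKK1 in SOX2 against GATA3 cells after thinning (-0.15) and, in SOX2+GATA3 against SOX2 cells, for RNF43 (0.22) and DKK1 (1.26) at 2 UMIs and DKK1 (0.21) without the deepest cells. In TBXT+GATA3 against TBXT cells AXIN2 went from 0.0016 to -0.011 (RLE), -0.019 (DESeq2), -0.020 (no filter) and -0.00046 (no replicate block). LEF1 (0.12), NKD1 (0.0084) and RNF43 (-0.19) changed sign there without the deepest cells. Single libraries gave values without a test. Groups under 10 cells in a library were not fitted: TBXT+GATA3 with detection at 2 UMIs, both double groups after thinning, and SOX2 with stricter filters. The promoter motif alternative was not run.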
